A study of Sus scrofa domesticus with 4 samples.

Results

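The insulin-like growth factor (IGF) family was followed in explants of pig myometrium (the muscular wall of the uterus) after culture with adiponectin. It was taken as every probe of the array whose RefSeq accession belonged to pig IGF1, IGF2, IGF1R, IGF2R or IGFBP1 to IGFBP6, which gave 19 of 43603 probes and 9 of the 10 genes, among 3029 genes named on the array. No probe was matched to IGFBP1, which was not analysed here. Treated explants were held with adiponectin at 10 µg/ml for 24 h after 2 h of preincubation, and control explants went through the same culture with no treatment. All tissue came from 4 Large White x Polish Landrace gilts, 7 to 8 months old and on days 15 to 16 of gestation. Each of 4 arrays carried RNA of 1 treated and 1 control explant culture, and the labels tie no array to a gilt and leave unsaid whether its RNA pair was from a single animal.

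The IGF system couples growth signals outside the cell to growth and survival within it. The ligands IGF1 and IGF2 act through the receptor tyrosine kinase IGF1R, while IGF2R, which also carries mannose 6-phosphate proteins to lysosomes, takes up IGF2 and has no kinase. The binding proteins hold the ligands outside the cell, prolong their stay and can block or assist their delivery to the receptor. In the pig uterus the system is known for its part in growth of the uterine wall and of the conceptus around implantation. Adiponectin is a hormone secreted mainly by fat cells, and the study asked what it does to gene expression in the myometrium of early pregnancy.

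No IGF family gene differed past the threshold between adiponectin-treated and control explants. Of the 15 probes tested, which covered all 9 genes, 0 were called at an adjusted p under 0.05 in limma, where 0.0% of all 22133 tested probes were called. At an unadjusted p under 0.05 limma gave 1264 of all tested probes, 839 higher and 425 lower. The split was 1854 higher and 1473 lower with slide as a random block and no dye coefficient, 1644 and 1518 with no filter on dim probes, and 1304 and 1090 without array 3. The lowest fitted value was that of IGFBP6, at -0.39 ± 0.14, and the highest that of IGFBP5, at 0.26 ± 0.16, on the log2 scale of treated over control (moderated SE, n = 4 arrays). IGF2 stood below 0 with each of its 4 tested probes, and IGF1R with both of its probes. The lowest adjusted p of a member in limma was 0.856 and the highest was 0.976. Among members, 1 probe had an unadjusted p under 0.05 and was lower, 6.67% of those tested, against 5.71% of all tested probes in either direction and 1.92% in the lower direction. With the slide block there were 6 such member probes, 3 of IGF2 and 1 each of IGF1R, IGFBP2 and IGFBP5, against 15.0% of all tested probes, and the IGFBP6 probe was not among them (limma unadjusted p = 0.0693).

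Of the 15 fitted log2 changes, 12 lay below 0 and 3 above, with a median of -0.18. Over all tested probes the median was -0.0023, and 50.5% lay below 0. Counted by gene, with the brightest tested probe for each, 6 of 9 lay below 0 and the median was -0.17. Several probes measured the same transcript, so these counts do not describe separate genes. On array 2 the median of the member ratios was -0.52 and 11 of 15 were below 0, whereas on arrays 1, 3 and 4 the medians were -0.16, -0.01 and -0.01. One member probe, of IGF1R, had the same sign on all 4 arrays, where 12.6% of all tested probes did. It lay below 0 on each, as did 6.22% of all tested probes, and 0 members lay above 0 on each, against 6.36% of all. The 95% intervals of the members reached between 0.34 and 0.80 to either side on the log2 scale, and 14 of 15 included no change.

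**Figure D1:**
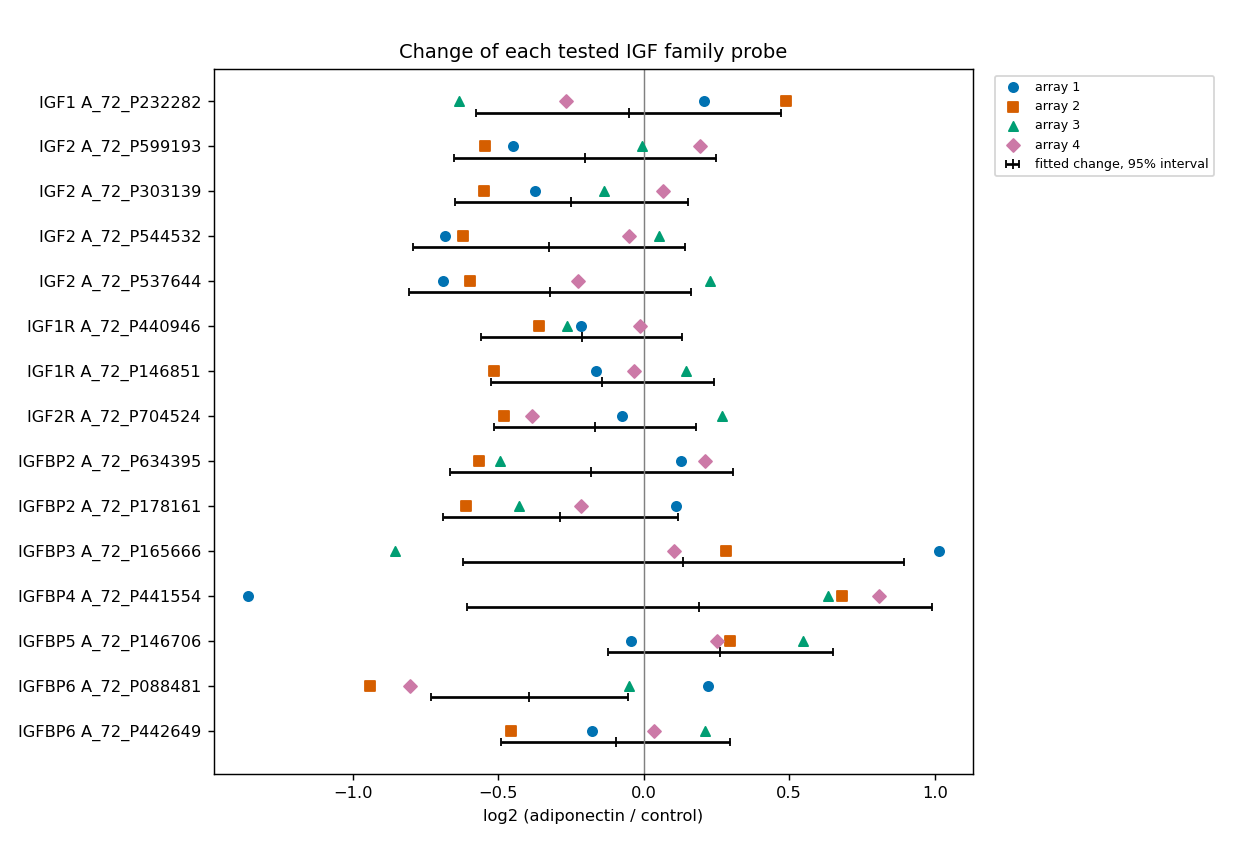
Log2 ratio of adiponectin over control (horizontal axis) for the 15 tested probes of 9 genes, with a point for each of the 4 arrays and, beneath it, the fitted change with its 95% interval (black). All intervals but that of IGFBP6 probe A_72_P088481 cross 0, and the arrays spread farthest for IGFBP3 and IGFBP4.

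A value of an array is the scanner's log ratio of processed signals, turned so that positive means higher in the treated explant. Processed signals are background-subtracted and dye-normalised spot intensities in arbitrary units, so they show a gene against itself and not one gene against another. By the dye fields, Cy5 marked the treated RNA of arrays 1 and 3 while Cy3 marked that of arrays 2 and 4, although the protocol text mentions Cy5 alone for treated RNA. The deposited series table, set against the scanner ratios of bright probes, had slopes on Cy5 over Cy3 of 1 on arrays 1 and 3 and of -1 on arrays 2 and 4, which is the orientation of the dye fields. A spot counted as present when the scanner marked it well above background, and testing a probe required this on 3 or more arrays for either treated or control RNA. Between 47.0% and 63.1% of spots were well above background in the treated channel, and between 46.1% and 56.5% in the control channel. Slide 1 (scan 1) held arrays 1 to 3, and slide 2 (scan 2) held array 4. Over the tested probes, the turned ratios of arrays 2 and 3, which had opposite dye orientations, correlated at -0.31, and those of arrays with the same orientation at -0.05 (1 and 3) and 0.25 (2 and 4). Probes are not independent of each other, so these values describe the arrays only. In whole tissue, fewer cells of a type and less RNA per cell cannot be told apart.

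IGF1, the ligand best known as a mediator of growth hormone action, went in both directions. Its signal was 807, 1538, 607 and 635 in the treated explants of arrays 1 to 4, against 700, 1096, 942 and 764 in the control explants. The treated explant was brighter on arrays 1 and 2 and dimmer on arrays 3 and 4, and the groups overlapped. The log2 ratios were 0.21, 0.49, -0.63 and -0.27, and the fitted change was -0.05 ± 0.21 with a limma adjusted p of 0.976. The interval allowed anything between 0.67-fold and 1.39-fold of the control level. Leaving out array 3 or array 4 turned the fitted change positive, to 0.16 and 0.14, and leaving out array 1 or 2 gave -0.26 and -0.24.

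IGF2, a fetal-type growth factor and a classic imprinted gene expressed from the paternal copy, had 5 probes on the array, of which 4 were tested. The brightest, A_72_P599193, read 2801, 2286, 1709 and 2641 in treated explants, against 3827, 3336, 1718 and 2309 in control explants. Treated explants were dimmer on arrays 1 and 2, nearly equal on array 3 and brighter on array 4, so the groups overlapped. The 4 tested probes gave the same picture array by array. Their log2 ratios lay between -0.69 and -0.37 on array 1 and between -0.62 and -0.55 on array 2. On arrays 3 and 4 they lay on both sides of 0, between -0.13 and 0.23 and between -0.23 and 0.19.

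The fitted log2 changes of IGF2 were -0.20 ± 0.18 for A_72_P599193, -0.25 ± 0.16 for A_72_P303139, -0.33 ± 0.19 for A_72_P544532 and -0.32 ± 0.20 for A_72_P537644. Their limma adjusted p-values lay between 0.862 and 0.891. These probes share the same 8 RNA samples and are not replicates of one another. Leaving out 1 array kept all 4 below 0, but without array 2 the brightest probe stood at -0.02, and without array 4 at -0.39. The ranges were -0.40 to -0.10 for A_72_P303139, -0.51 to -0.14 for A_72_P544532 and -0.55 to -0.09 for A_72_P537644, the highest value being that without array 2 for the first of them and without array 1 for the others. The control explants of arrays 1 and 2, where all 4 IGF2 ratios were below 0, were also those with the highest IGF2 control signal in all 4 tested probes. The control signal is the denominator of the ratio, so these are not separate observations.

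The other IGF2 probe, A_72_P537638, lay below these 4 on arrays 1 and 3 and within their range on array 4. Its array 2 spot was marked as an outlier by the scanner software, so it had no value there and was not tested. Its log2 ratios were -1.04, -2.08 and -0.08 on arrays 1, 3 and 4. The value of -2.08 on array 3 stands against -0.13 to 0.23 for the tested IGF2 probes on the same array. Read by dye, its Cy5 signal was below its Cy3 signal on arrays 1 and 3 by the same amounts, since treated RNA was in Cy5 there. On array 2, where dyes were swapped, the marked spot had a log2 of Cy5 over Cy3 of -2.23, with 5181 in Cy3 and 1108 in Cy5. On all arrays of slide 1 the Cy3 signal was thus the higher, whichever explant it held, and on array 4, on slide 2, the log2 of Cy5 over Cy3 was 0.08. What sets this probe apart was not tested.

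**Figure D2:**
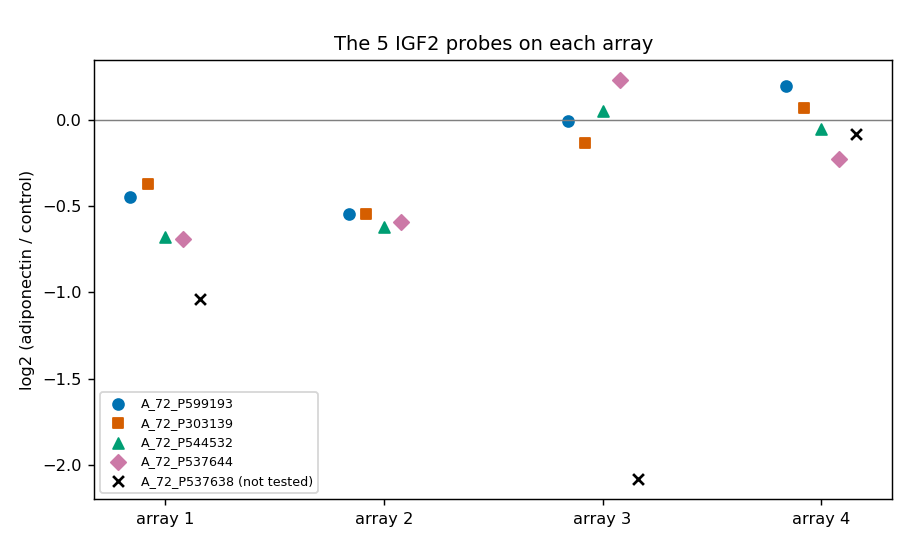
Log2 ratio of adiponectin over control (vertical axis) for the 5 IGF2 probes on each of the 4 arrays. The 4 tested probes lie close together on every array, below -0.3 on arrays 1 and 2 and around 0 on arrays 3 and 4, while A_72_P537638 (crosses, no value on array 2) lies at -2.08 on array 3.

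IGF1R, the receptor that carries the growth signal of both ligands into the cell, gave the member probe with the same sign on all arrays. A_72_P440946 read 377, 441, 406 and 351 in treated explants, against 438, 567, 487 and 355 in control explants. The treated explant was dimmer on each array, by log2 ratios of -0.22, -0.36, -0.26 and -0.01, but the ranges of the groups overlapped. The fitted change was -0.21 ± 0.14, a fold of 0.86 (limma adjusted p = 0.867). The other IGF1R probe, A_72_P146851, had ratios of -0.16, -0.52, 0.15 and -0.03 and a fitted change of -0.14 ± 0.15 (limma adjusted p = 0.908). The 2 probes differed in sign on array 3, and both stood nearest to 0 when array 2 was left out, at -0.13 and -0.02.

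IGF2R, the scavenger receptor of IGF2, was near background. Of its 4 probes, 3 passed the background mark on no more than 2 arrays in either condition and were not tested. The tested probe, A_72_P704524, read 62.7, 49.95, 52.1 and 36.1 in treated explants, against 66.0, 69.7, 43.2 and 47.1 in control explants. Its ratios were -0.07, -0.48, 0.27 and -0.38, with array 3 alone above 0. The fitted change was -0.17 ± 0.14 (limma adjusted p = 0.890), and -0.06 with normexp background correction and loess normalisation in place of the scanner's own processing. The 3 untested probes had ratios on both sides of 0 and at signals under 60 units, so no statement on IGF2R can rest on them.

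Among the binding proteins, IGFBP2, IGFBP5 and IGFBP6 were measured with the least spread, and IGFBP3 and IGFBP4 with the most. IGFBP2 and IGFBP5 are neighbouring genes in the pig annotation, and so are IGFBP1 and IGFBP3. The fitted changes of the IGFBP2 and IGFBP5 neighbours had opposite signs, and neither passed.

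IGFBP6 is the binding protein with a preference for IGF2 over IGF1. Its brighter probe, A_72_P088481, read 1268, 909, 988 and 910 in treated explants, against 1087, 1744, 1023 and 1587 in control explants. The treated explants were dimmer by log2 ratios of -0.94 and -0.80 on arrays 2 and 4, and stood at 0.22 and -0.05 on arrays 1 and 3. Arrays 2 and 4 are those with treated RNA in Cy3, and the fit gave this split to a dye coefficient of 0.48 (log2 of Cy5 over Cy3). The fitted change of -0.39 ± 0.14, a 1.31-fold lower signal, had an interval from -0.73 to -0.05 and an unadjusted limma p of 0.0302. Its limma adjusted p was 0.856 over all tested probes. Without the dye coefficient the unadjusted limma p was 0.128. The second probe, A_72_P442649, stood at -0.18, -0.46, 0.21 and 0.04 on the 4 arrays and at -0.10 ± 0.16 in the fit (limma adjusted p = 0.938), and at -0.01 with normexp and loess. The 2 probes shared a sign only on array 2.

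IGFBP5, a matrix-associated binding protein abundant in muscle and stroma, had the highest fitted change of the members. It read 2383, 1012, 1453 and 785 in treated explants, against 2455, 825, 995 and 660 in control explants. Ratios were -0.04, 0.30, 0.55 and 0.25, so the treated explant was brighter on arrays 2 to 4 and level on array 1. The explants of array 1, treated and control, were brighter than those of any other array, and the groups overlapped. The fitted change was 0.26 ± 0.16, a 1.20-fold higher signal (limma adjusted p = 0.863). Without array 3 it was 0.12, and without array 1 it was 0.41.

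IGFBP2, a binding protein of fetal and uterine tissues, had 2 probes with the same sign on arrays 1 to 3. A_72_P634395 read 582, 363, 501 and 616 in treated explants, against 533, 537, 704 and 532 in control explants. Its ratios were 0.13, -0.56, -0.49 and 0.21, and those of A_72_P178161 were 0.11, -0.61, -0.43 and -0.21. The 2 probes thus placed arrays 2 and 3 below 0 and array 1 above it, and differed in sign on array 4. The fitted changes were -0.18 ± 0.20 and -0.29 ± 0.16 (limma adjusted p of 0.908 and 0.860). The first of them was 0.01 without array 2 and -0.02 without array 3.

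IGFBP3, the main carrier of IGFs in blood and also made by stromal cells, differed most between arrays among the bright members. It read 2478, 3485, 2252 and 1601 in treated explants, against 1227, 2868, 4070 and 1488 in control explants. The treated explant was brighter on array 1 by a log2 ratio of 1.01 and dimmer on array 3 by -0.85, with 0.28 and 0.10 on arrays 2 and 4. The fitted change was 0.14 ± 0.31 (limma adjusted p = 0.956). The SD of its 4 ratios was 0.77, and 7.97% of all tested probes had a larger one. Without array 1 the fitted change was -0.33, and without array 3 it was 0.60.

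IGFBP4, a binding protein that is released from its ligand through cleavage by the protease PAPPA, was dim but well above background on all 4 arrays in both channels. It read 45.0, 62.6, 94.4 and 114.8 in treated explants, against 115.4, 39.1, 60.8 and 65.6 in control explants. Array 1 stood apart with a log2 ratio of -1.36, against 0.68, 0.63 and 0.81 on arrays 2, 3 and 4. The fitted change was 0.19 ± 0.32 (limma adjusted p = 0.941), with 0.69 when array 1 was left out and -0.31 when array 3 was. With normexp and loess the ratio of array 1 was -0.31 and the others lay between 0.26 and 0.43, so the array 1 value was smaller under those settings. The SD of the scanner ratios was 1.04, and 3.38% of all tested probes had a larger one.

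**Figure D3:**
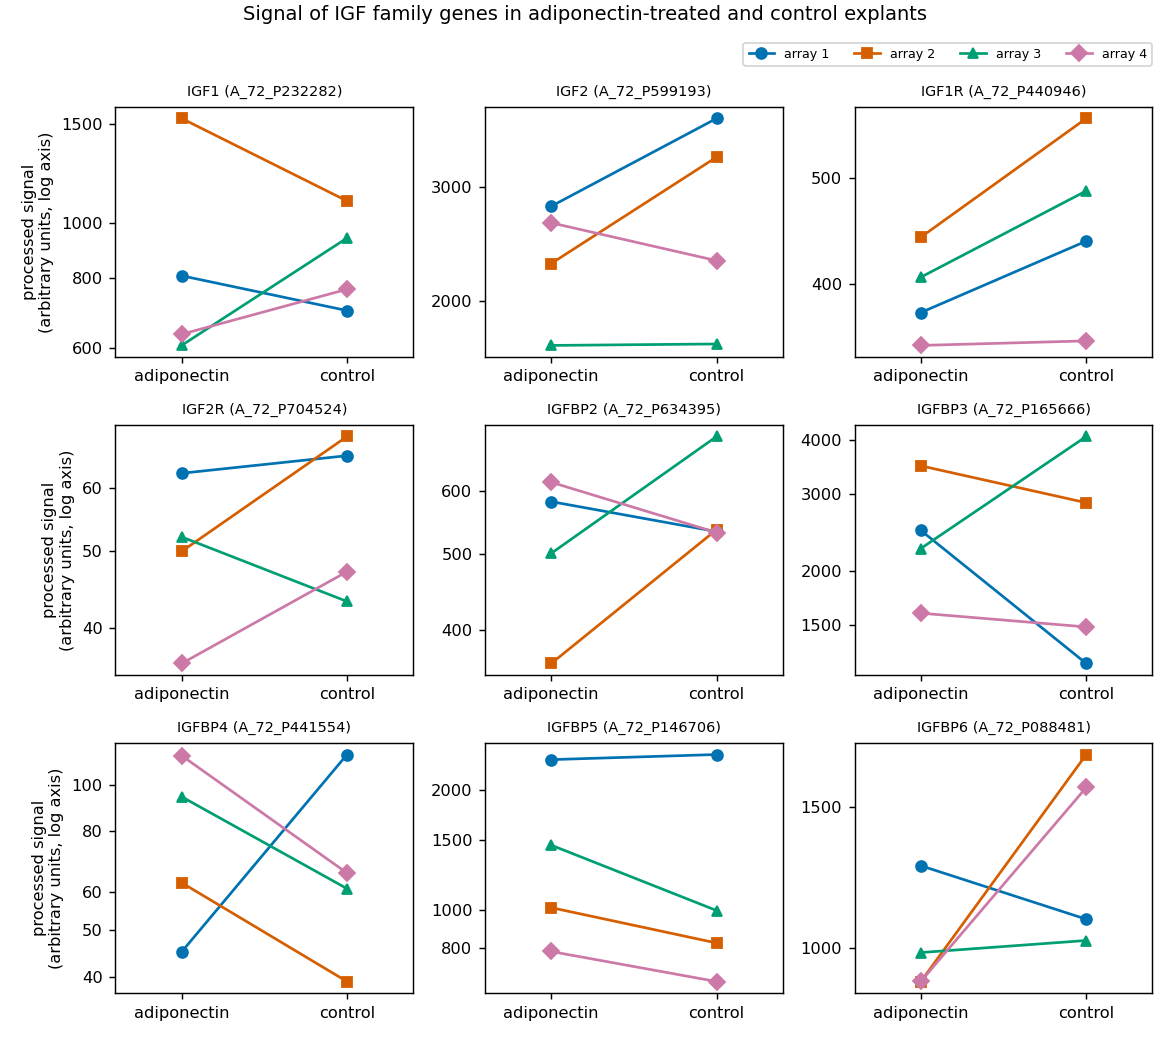
Processed signal (vertical log axis, arbitrary units, own scale in each panel) in adiponectin-treated (left) and control (right) explants for the brightest tested probe of 9 genes, with a line joining the 2 explants of an array. IGF1R lines rise toward control on each array, IGF2 and IGFBP6 lines do so on 3 arrays each, and the signals of treated and control explants overlap in all panels.

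The treated and control signals of the 4 arrays overlapped for all 15 tested member probes. Over all tested probes, 0.511% had groups that did not overlap. The control signals themselves differed between arrays. After scaling each array's control channel to its 75th percentile, the SD of the control log2 level lay between 0.27 for IGFBP2 and 0.92 for IGFBP3, with a median of 0.55 over the 15 probes and of 0.44 over all tested probes. In 12 of the 15 probes this spread was larger than the SD of the 4 treated-over-control ratios. The median SD of the ratios was 0.35 over the 15 probes and 0.34 over all tested probes, so both sets ran the same way. How many of all tested probes had the larger spread in the control level was not counted. Control RNA was in Cy3 on arrays 1 and 3 and in Cy5 on arrays 2 and 4. Differences of dye and slide are thus part of the control spread, and were not set apart from differences between explants. The control level of IGFBP3 differed 3.79-fold between the brightest and the dimmest array, and that of IGFBP5 2.96-fold.

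Where a gene had more than 1 tested probe, the probes were set side by side. There were 4 such genes, IGF2, IGF1R, IGFBP2 and IGFBP6, and in each all fitted changes lay below 0. Over the 16 pairs of gene and array, all probes of the gene had the same sign in 9. Array 2 was the array on which the probes of all 4 genes lay below 0.

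**Figure D4:**
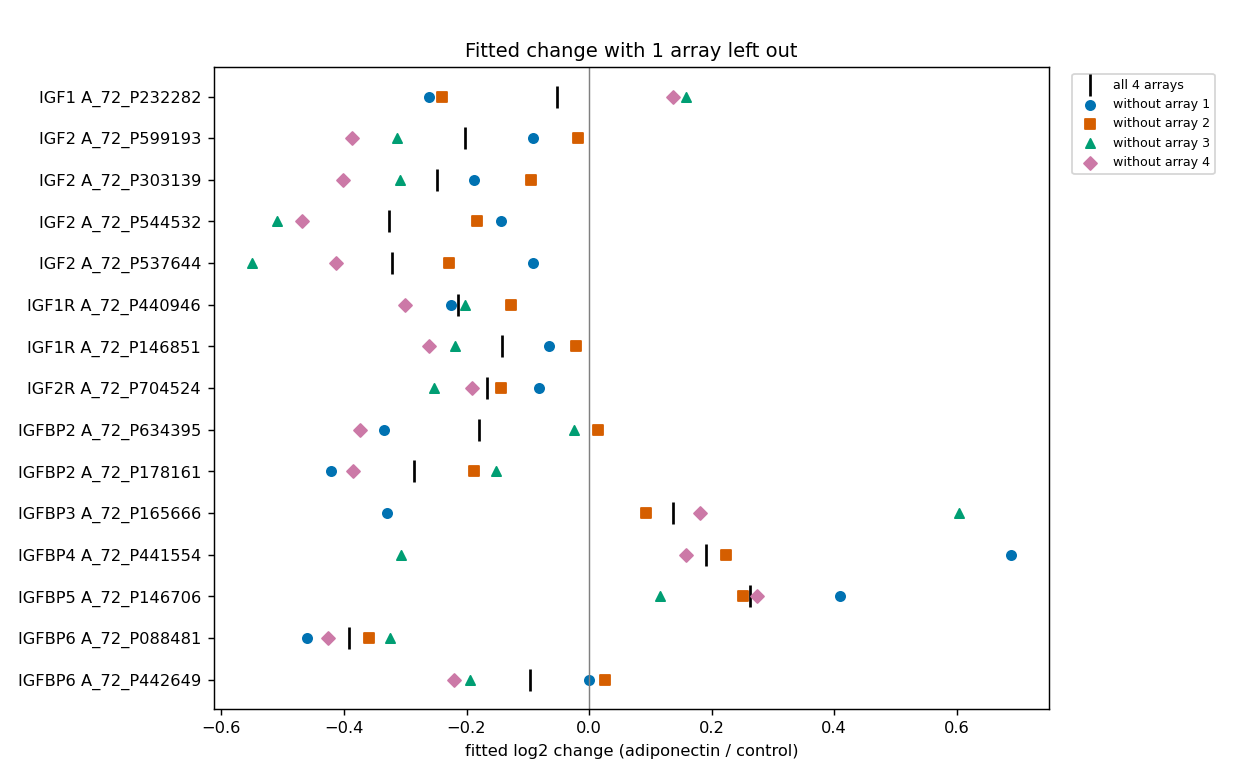
Fitted log2 change of adiponectin over control (horizontal axis) for the 15 tested probes with all 4 arrays (black bars) and with each array left out in turn (points). IGF2, IGF1R, IGF2R, IGFBP5 and the brighter IGFBP6 probe keep their sign, and IGF1, IGFBP3 and IGFBP4 cross 0.

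Genes around the IGF system were read from the same fit. They comprised 79 genes in 7 lists by role, of which 29 had a named probe and 24 were tested, so these lists cover the pathway thinly. None was called in either direction, 13 lay above 0 and 11 below, and their median log2 change was 0.0040. At an unadjusted p under 0.05 there was 1, MMP9.

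MMP9, a matrix metalloprotease able to cleave binding proteins, stood at 0.93 ± 0.30, with ratios of 0.52, 0.03, 1.87 and 1.29 (limma adjusted p = 0.856). Leaving out array 3 or 4 gave 0.59 and 0.62, and leaving out array 2 or 1 gave 1.24 and 1.27. Its other tested probe was at 1.64. CTSD, a lysosomal protease that also degrades binding proteins, was at -0.15 ± 0.18. Of 5 tested genes among proteases of binding proteins and their inhibitors, 3 lay above 0 and 2 below.

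Of the receptors' docking proteins, 1 of 3 tested lay above 0. GRB10, an adaptor that restrains insulin and IGF1 receptor signalling and is imprinted in mouse and human, was at 0.12 ± 0.15, and IRS1, the first docking protein of the receptor, at -0.04 ± 0.14. IGFBP7, a related protein with low affinity for IGFs and the 1 tested carrier, was at 0.22 ± 0.20 with ratios of -0.16, 0.28, 0.80 and -0.03. In the growth hormone axis, 3 of 5 tested genes lay above 0. JAK2, the kinase of the growth hormone receptor, was at 0.04 ± 0.15. STAT5B, its transcription factor, was at -0.39 ± 0.34, with -1.94 on array 4 and values between 0.05 and 0.20 on the other arrays, but at -0.0066 with normexp and loess.

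Of the IGF transcript binding and imprinting genes, 2 of 3 tested lay above 0. CTCF, the insulator protein that binds the control region of the IGF2 locus, was at 0.19 ± 0.14 (0.063 with normexp and loess) and PLAGL1, an imprinted transcription factor, at 0.20 ± 0.23. In the PI3K, AKT and mTOR list, 1 of 4 tested lay above 0. AKT1, the kinase downstream of IGF1R, was at -0.32 ± 0.29 with ratios of -1.18, -0.46, 0.55 and -0.19. Of the RAS and MAPK genes, 2 of 3 lay above 0, with DUSP6, a phosphatase of ERK, at 0.12 ± 0.17 and MAP2K1, the kinase of ERK, at 0.07 ± 0.14. The limma adjusted p of these genes lay at or above 0.856. Of the 12 pathway genes named here, the sign of all but MMP9 and CTCF changed when at least 1 array was left out. IRS1, STAT5B and CTCF were dim, with control signals of 19.6 to 90.5, 42.4 to 79.7 and 41.0 to 76.4 units. None of them was well above background on every array in both channels.

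Markers of the cells in the explants differed between arrays as well. All 5 tested smooth muscle markers (ACTA2, DES, CNN1, MYL9 and SMTN) were well above background on each array in both channels. Their median log2 ratio was -0.50, -0.15, 0.58 and -0.25 on arrays 1 to 4. All 8 tested macrophage markers lay above 0 in the fit, from 0.0062 for CD14 to 1.20 for VSIG4, with array medians of 0.51, -0.26, 2.29 and 0.63. Of these, 3 had an unadjusted limma p under 0.05 and 0 passed after adjustment. Over all tested probes, 5.71% had such an unadjusted p, and 3.79% had it in the higher direction. Summed over the 8 markers, their signal lay between 1860 and 8623 in treated explants and between 1745 and 5084 in control explants. Epithelial markers (5 tested) had array medians of -0.09, 1.24, -0.95 and 0.69, and stromal markers (6 tested) 0.49, -0.20, -0.37 and -0.03. The stromal marker ASPN, at 0.98 and above 0 on all 4 arrays, also had an unadjusted limma p under 0.05. It was dim, and well above background on 2 arrays in the control channel. Endothelial markers (4 tested) had array medians between -0.23 and 0.27, with fitted changes from -0.45 for ENG to 0.35 for PECAM1. ENG lay below 0 on all 4 arrays, with an unadjusted limma p under 0.05, and PECAM1 lay above 0 on all 4. Of the adipocyte markers, ADIPOQ, PLIN1 and CIDEC were not tested, and LEP and FABP4 were at 0.09 and -0.25. On array 3 the macrophage and smooth muscle markers had their highest median ratios, and the epithelial and stromal markers had their lowest. The ratios of IGF1 (-0.63), IGFBP3 (-0.85) and the IGFBP2 probes were below 0 there, and that of IGFBP5 (0.55) was above 0. A ratio depends on the treated and the control explant alike, so these values do not give levels in the treated explant. On array 1, smooth muscle markers had their lowest median ratio and stromal markers their highest. The ratios of the tested IGF2 probes were below 0 there and that of IGFBP3 was above 0. The treated IGF2 signal of A_72_P599193 was 2801 on array 1, against 3827 in the control explant. As log2 over the 75th percentile of the array's channel, its treated level was 2.78, 2.99, 2.24 and 3.01 on arrays 1 to 4. IGFBP3 had its lowest control signal on array 1, at 1227. The part of these cell types in the IGF family values was not tested.

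Among 2133 other named genes, those with array ratios nearest to a member were found by the root mean square difference over the 4 arrays, which is a description of 4 points each. Nearest to IGF1 were IVNS1ABP (0.11), F3, the tissue factor gene (0.14), and MTURN (0.17). Nearest to IGF2 were SLC9A3R2 (0.11), TEAD4 (0.12) and NDN (0.12). Their ratios on arrays 1 and 2 lay between -0.60 and -0.41, which follows from their choice by likeness to the IGF2 ratios. Nearest to the brighter IGFBP6 probe were RHBG (0.13), PLAC9 (0.15) and SLC5A1 (0.17).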

How the data were processed

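The authors deposited a scanner file for each of 4 arrays, made with Agilent Feature Extraction 10.7.3.1 per the file headers, which hold spot intensity per channel and a log10 ratio of background-subtracted, dye-normalised Cy5 over Cy3 signals. The deposited series table holds log2 ratios; these lay within 0.01 of the turned scanner ratio for nearly all bright probes (99.99% on array 2, the lowest), so direction and scale were settled there, while its handling of dim probes stays unknown. Its column medians were -0.10, 0.13, -0.14 and 0.16.

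The scanner ratio was changed to log2 and turned by the dye fields. Control spots and outlier-marked spots were left out and spots of a probe averaged. Of 43603 probes, 22133 were tested (50.8%), after 159 bright probes without a value on an array were dropped. Names came from RefSeq accessions without versions matched to Sscrofa11.1: 6700 of 7125 probes with an accession received 1 of 3029 symbols. Ratios were fitted in limma 3.58.1 under R 4.3.3 (lmFit, eBayes, two-sided) with a treatment and a dye coefficient per probe. P-values were adjusted by Benjamini-Hochberg over all tested probes, with a threshold of 0.05. Values after ± are moderated SE, which leave out the spread that the dye coefficient takes up. Intervals are 95% intervals. Since no label ties arrays to gilts, p-values reflect only how these arrays differ, which can be technical in part, and 4 arrays limit the precision. The fit was tested on simulated data.

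Members and lists were chosen with earlier results of these data known. Named were all members and, for each pathway list, genes that passed or, with none passing, up to 2 of smallest unadjusted p, of which 1 gene is not reported here. The 3 nearest genes were named for IGF1, IGF2 and the member with the smallest unadjusted p. A gene's brightest tested probe stood for it in lists. The alternatives were normexp (offset 50) with loess on median spot signals, centring of each array, the deposited table, no dye coefficient, no filter and a stricter filter on dim probes, a spread trend, slide as a random block and leaving out each array. No sequences are shown, because neither the array files nor the tables used here hold them.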

Additional observations from a re-analysis of the deposited data

Results flagged for a closer look

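Of 57 sets of 4 values, 5 held an array that stood apart from the rest, and about 2.85 would do so by chance, at 1 set in 20. The sets are not independent, since a ratio is formed from the treated and control levels and several probes share a gene. The counts are therefore no test of an excess. The IGFBP4 ratio was -1.36 on array 1, the other arrays lying between 0.63 and 0.81. The STAT5B ratio was -1.94 on array 4, with 0.05 to 0.20 elsewhere. The remaining 3 are levels, given as log2 over the 75th percentile of the array's channel. IGF1 in treated explants was 2.42 on array 2, with 0.75 to 0.99 elsewhere. IGF1R probe A_72_P146851 in treated explants was -0.43 on array 4, with -0.08 to -0.03 elsewhere. IGFBP6 probe A_72_P442649 in control explants was 0.62 on array 2, with -0.74 to -0.64 elsewhere.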

How the results depend on the processing

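The count of 0 called probes was the same under the alternatives run, except that without array 3 limma called 12 probes higher and 0 lower, so leaving out 1 array gave between 0 and 12. Member probes called were 0 in all of them. All 15 tested member probes kept their direction with normexp and loess, array centring, the deposited table, no dye coefficient, no filter on dim probes, a spread trend and, chosen after seeing the data, slide as a random block without the dye coefficient; 14 remained tested under the stricter filter and kept theirs. With normexp and loess, 5 moved by over 1.5 times: IGF1 to -0.09, IGF2 probe A_72_P537644 to -0.18, IGF2R to -0.06, IGFBP3 to 0.07 and IGFBP6 probe A_72_P442649 to -0.01. With the slide block, IGF1 stood at -0.017 and IGFBP4 at 0.092. The normexp and loess values of AKT1, PLAGL1, GRB10, CTSD, DUSP6 and MAP2K1 were -0.19, 0.11, 0.069, -0.092, 0.21 and 0.12. Slide as a random block could not be fitted beside the dye coefficient, and the fit without array 4 is the one within slide 1. The fit is itself paired by array, since each ratio sets the treated RNA of an array against its control RNA. Pairing by animal was not possible, because no label ties arrays to gilts. With 1 array left out, the fit weighs the lone array of a dye orientation like the remaining 2 together. Then 5 of 15 members changed sign: IGF1 (-0.26 to 0.16), IGFBP2 probe A_72_P634395 (-0.37 to 0.015), IGFBP3 (-0.33 to 0.60), IGFBP4 (-0.31 to 0.69) and IGFBP6 probe A_72_P442649 (-0.22 to 0.026). So did 10 of 12 named pathway genes: GRB10 (-0.0031 to 0.24), IRS1 (-0.12 to 0.046), CTSD (-0.31 to 0.018), IGFBP7 (-0.016 to 0.46), STAT5B (-0.93 to 0.14), JAK2 (-0.058 to 0.14), PLAGL1 (-0.10 to 0.49), AKT1 (-0.76 to 0.11), DUSP6 (-0.041 to 0.28) and MAP2K1 (-0.0052 to 0.15). JAK2 also turned with normexp and loess (-0.0032) and with the slide block (-0.011). IGF2R, well above background on 3 of 4 arrays in either channel, is the member that the stricter filter left out.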
